A study of Homo sapiens with 7 samples.

Results

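The genes of integrin subunits and laminin chains were followed in the triple-negative, mesenchymal breast cancer line SUM159 after knockdown of the tyrosine phosphatase SHP2. Members were taken by gene symbol, from every array probe set (called probe here) that the annotation gives to 1 gene only, and numbered 35 of the 18417 genes measured. They were 17 integrin alpha subunits, 8 integrin beta subunits and 10 laminin chains, each with 1 probe. LAMA3 was not analysed here, and ITGA1 shared its probe with PELO and was not counted. All cells carried a doxycycline-inducible hairpin and were grown with doxycycline in 2D culture for 15 days. The hairpins were SHP2 sh1 (2 arrays) and SHP2 sh2 (3 arrays), both against SHP2, and Ctrl shRNA (2 arrays), a control. Whether replicate arrays stem from separate cultures, or a line from 1 clone, is not stated in the labels, so a p-value here reflects only how these arrays spread, and that spread may be technical. RNA was hybridized to Human Gene 1.0 ST arrays, and all values below are on the log2 scale, where a difference of 1 is a doubling of signal.

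Integrins are receptors of the cell surface, each made of an alpha and a beta subunit, that bind cells to the extracellular matrix or to other cells and signal through focal adhesions. The alpha subunit largely sets the ligand. Laminins are the main cell-binding proteins of basement membranes, the thin matrix sheets under epithelia and around vessels and muscle, and each is a trimer of an alpha, a beta and a gamma chain. In the breast, receptors such as alpha6 beta4 and alpha3 beta1 hold epithelial cells to laminin. SHP2 takes part in signalling below integrins and growth factor receptors, and is needed for full activation of the RAS and ERK pathway.

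PTPN11, the gene of SHP2, had values of 7.90 and 6.93 under SHP2 sh1 and of 7.96, 7.20 and 7.89 under SHP2 sh2, against 9.53 and 9.18 under Ctrl shRNA, so that all 5 SHP2 arrays lay below both controls. The mesenchymal markers fixed for the line had medians of 11.2 to 12.1 on the SHP2 arrays and of 11.9 and 12.01 on the control arrays, and the 4 epithelial and hormone receptor markers had medians of 4.86 to 5.81 on the SHP2 arrays, against 4.92 and 4.87 on the control arrays. Replicate 2 of each SHP2 hairpin, 2 arrays in all, stood apart from the rest. Their correlations over all probes were 0.930 to 0.965 and 0.886 to 0.936 with the other 5 arrays and 0.972 with each other, whereas the other 5 correlated at 0.981 to 0.992 among themselves. What set them apart was not tested.

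No member passed the threshold in any comparison. limma, fitted to all genes at once, called 0 of 35 members at an adjusted p under 0.05 for SHP2 sh1, SHP2 sh2, their mean or the hairpins set against each other, and the share called among all genes was 0% in each. The smallest adjusted p of a member was 0.995 with SHP2 sh1, 0.667 with SHP2 sh2, 0.758 when both hairpins were averaged and 1 between them (limma). PTPN11, the target of both hairpins, was not called either. Its adjusted p was 0.995 with SHP2 sh1, 0.667 with SHP2 sh2 and 0.758 for their mean (limma). Its log2 fold change for the mean of both hairpins was -1.80 (standard error 0.34, unadjusted p = 0.0014 from limma). The lack of a call with these arrays therefore does not show that a member was unchanged. At an unadjusted p under 0.05, 2 members were higher with SHP2 sh1 (LAMB3 and ITGA11), where 1.09% of all genes passed in either direction. With SHP2 sh2 there were 0 such members, against 2.35% of all genes. The mean of both hairpins gave the same 2 members (1.94% of all genes), and SHP2 sh2 over SHP2 sh1 gave 1, LAMC1, which was lower (0.63% of all genes). For the mean of both hairpins, a member's log2 fold change had a median standard error of 0.29 with all arrays and 0.10 without the 2 arrays that stood apart. Standard errors without those arrays, here and below, hold no spread of SHP2 sh1, which then had 1 array.

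Most members had a log2 fold change above 0, as had most of all genes. For the mean of both hairpins, 24 members were above 0 and 11 below, with a median of 0.24. Of all 18417 genes, 10691 were above 0 and 7726 below, with a median of 0.08. By subfamily, of the alpha subunits 12 were above and 5 below (median 0.20), of the beta subunits 3 above and 5 below (median -0.22), and of the laminin chains 9 above and 1 below (median 0.41). With SHP2 sh1 alone the medians were 0.15 over the integrins and 0.56 over the laminin chains, and with SHP2 sh2 alone 0.23 and 0.27. When SHP2 sh1 replicate 2 and SHP2 sh2 replicate 2 were left out, the medians for the mean of both hairpins were 0.10 over the integrins and 0.11 over the laminin chains. Over the beta subunits the median was then 0.11, above 0, and over all genes 0.0018.

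**Figure D1:**
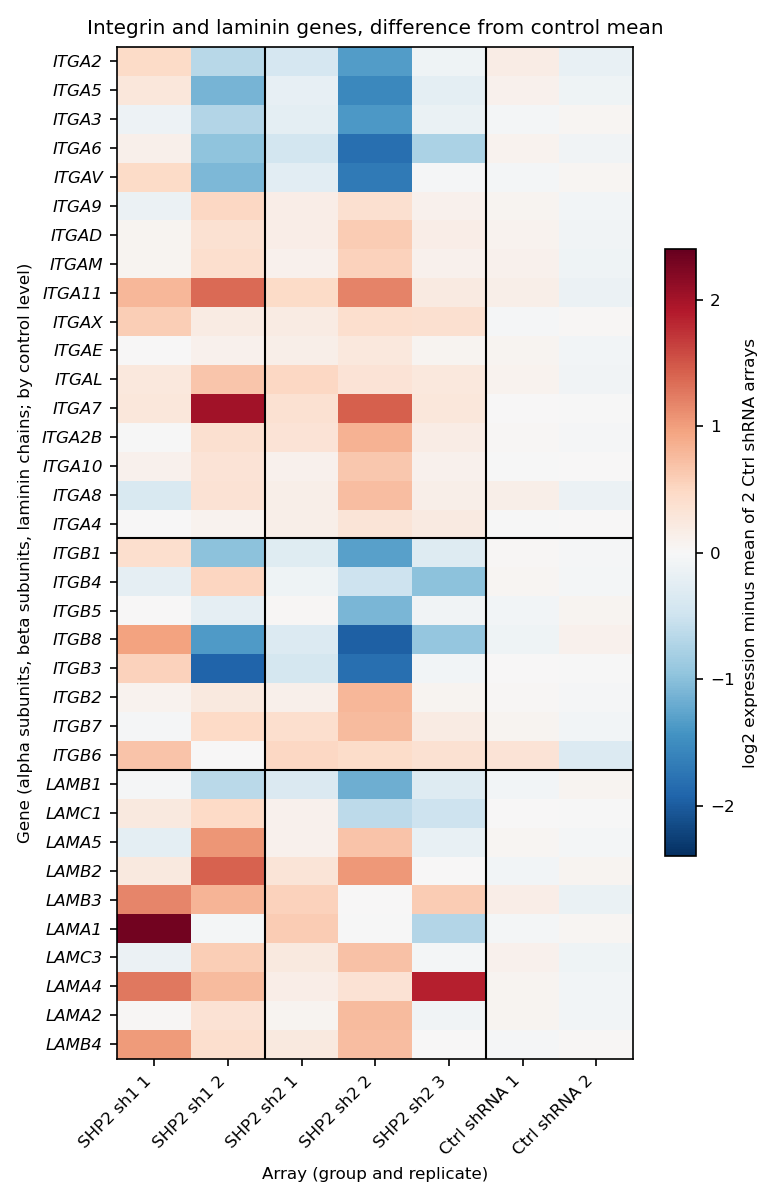
Log2 expression of the 35 members on each array minus the mean of the 2 Ctrl shRNA arrays, with arrays in columns by group and genes in rows (alpha subunits, beta subunits, laminin chains, each ordered by control signal). Blue cells gather in the genes of high control signal on SHP2 sh1 replicate 2 and SHP2 sh2 replicate 2. The darkest red cells are LAMA1 on SHP2 sh1 replicate 1, ITGA7 on SHP2 sh1 replicate 2 and LAMA4 on SHP2 sh2 replicate 3.

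The main matrix receptors of adherent cells, all of them in the top quartile of signal in the controls, spread widely over the SHP2 arrays. ITGB1, the beta subunit shared by most receptors for collagen, laminin and fibronectin, had values of 10.80 and 9.42 under SHP2 sh1 and of 10.11, 9.08 and 10.08 under SHP2 sh2, against 10.42 and 10.37 under Ctrl shRNA. SHP2 sh1 replicate 1 was the highest of the 7 arrays, while the other SHP2 arrays lay below both controls. The log2 fold change of ITGB1 was -0.28 (standard error 0.53) with SHP2 sh1 and -0.64 (standard error 0.48) with SHP2 sh2. Without the arrays that stood apart it was 0.41 with SHP2 sh1 and -0.30 with SHP2 sh2. SHP2 sh1 then had replicate 1 alone, so the standard errors of 0.07 and 0.06 hold none of the spread between its arrays.

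The same order held for ITGA5, which pairs with ITGB1 to form the classical fibronectin receptor. Its values were 11.46 and 10.07 under SHP2 sh1 and 10.996, 9.65 and 10.95 under SHP2 sh2, against 11.29 and 11.09 under Ctrl shRNA. The SHP2 sh2 arrays lay below both controls and the SHP2 sh1 arrays on either side of them. ITGA6, the alpha subunit of the laminin receptors alpha6 beta1 and alpha6 beta4, had values of 11.09 and 10.01 under SHP2 sh1 and of 10.54, 9.17 and 10.21 under SHP2 sh2, against 11.05 and 10.90 under Ctrl shRNA. Its log2 fold change with SHP2 sh2 was -1.003 (standard error 0.48, unadjusted p = 0.0784 and adjusted p = 0.667 from limma), the smallest p of any member in that comparison, and -0.60 (standard error 0.15) without replicate 2 of each hairpin.

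ITGB3, which joins ITGAV in a receptor for vitronectin, had values of 9.30 and 6.83 under SHP2 sh1 and of 8.32, 6.94 and 8.69 under SHP2 sh2, against 8.75 on each Ctrl shRNA array. The SHP2 sh2 arrays lay below both controls, replicate 3 by little. ITGB8, whose receptor with ITGAV binds latent TGF-beta, had values of 9.91 and 7.59 under SHP2 sh1 and of 8.63, 6.98 and 8.02 under SHP2 sh2, against 8.85 and 9.05 under Ctrl shRNA. For both genes the SHP2 sh1 arrays spread more widely than the difference between any 2 group means, with an SD of 1.74 for ITGB3 and 1.64 for ITGB8 (n = 2). In these 5 genes (ITGA5, ITGA6, ITGB1, ITGB3 and ITGB8), a set chosen after the values were seen, SHP2 sh1 replicate 1 was above both controls and all 3 SHP2 sh2 arrays below both. Among all genes 5.2% had this pattern. In the top quartile of control signal, where all 5 lie, 33.3% of 15 members had it, against 11% of all genes.

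**Figure D2:**
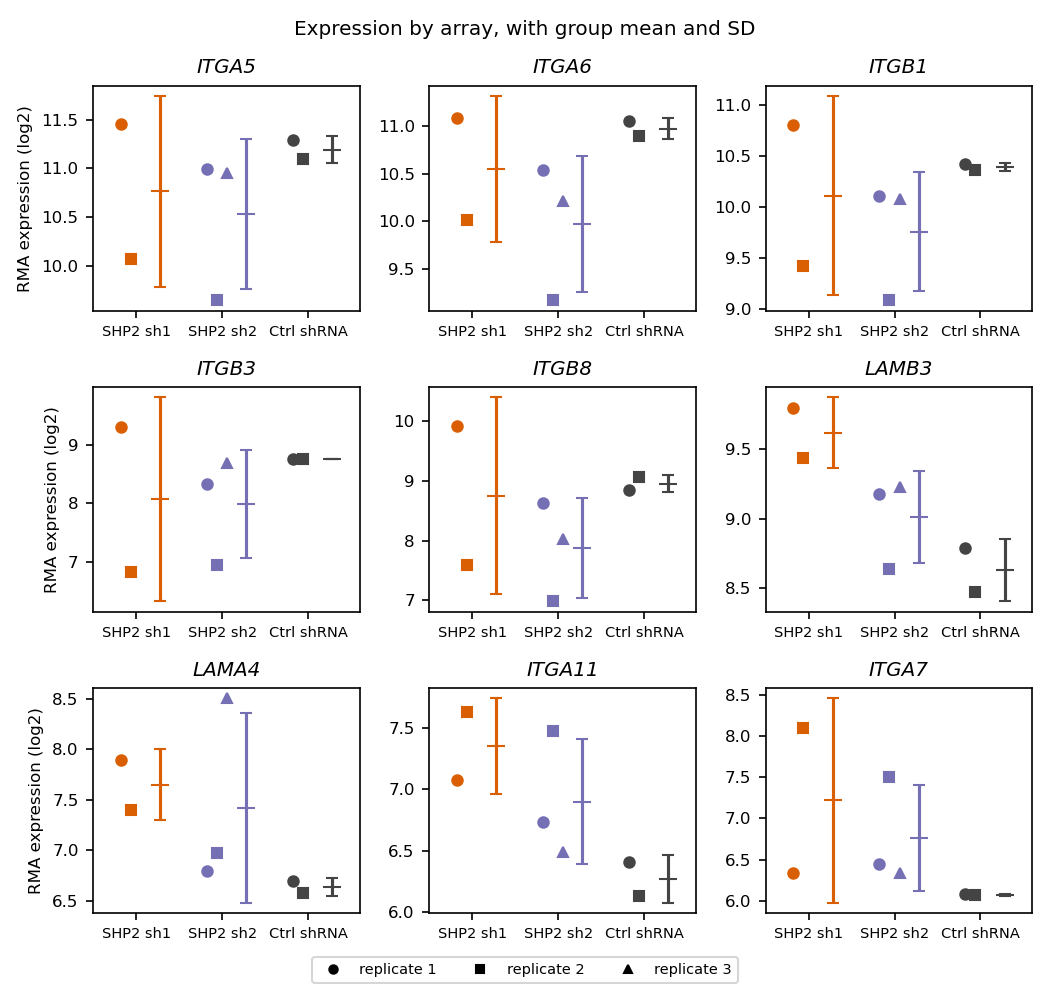
RMA expression (log2) of 9 members by array, with SHP2 sh1, SHP2 sh2 and Ctrl shRNA from left to right, symbols for replicate numbers, and a bar for the mean and SD of each group. In ITGA5, ITGA6, ITGB1, ITGB3 and ITGB8 replicate 2 of each SHP2 hairpin is the lowest of its group, whereas in ITGA11 and ITGA7 it is the highest.

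ITGAV, the alpha subunit of several receptors for vitronectin and fibronectin, had values of 11.32 and 9.78 under SHP2 sh1 and of 10.62, 9.18 and 10.83 under SHP2 sh2, against 10.82 and 10.91 under Ctrl shRNA. SHP2 sh2 replicate 3 lay between the 2 controls, so the groups overlapped. ITGB5, another partner of ITGAV, had values of 9.25 and 9.03 under SHP2 sh1 and of 9.27, 8.15 and 9.16 under SHP2 sh2, against 9.19 and 9.31 under Ctrl shRNA. Only SHP2 sh2 replicate 2 was far from the other arrays. ITGA2, the alpha subunit of a collagen receptor, had values of 12.04 and 10.92 under SHP2 sh1 and of 11.17, 10.24 and 11.48 under SHP2 sh2, against 11.76 and 11.39 under Ctrl shRNA. Its groups overlapped as well, and the log2 fold changes for the mean of both hairpins were -0.49 (standard error 0.57) for ITGAV, -0.25 (standard error 0.33) for ITGB5 and -0.36 (standard error 0.43) for ITGA2. They became 0.16, -0.014 and 0.10 without the arrays that stood apart.

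ITGA3 and ITGB4 are further laminin receptor subunits of epithelial cells. ITGA3, which with ITGB1 binds the laminins of epithelial basement membranes, had values of 10.98 and 10.40 under SHP2 sh1 and of 10.88, 9.72 and 10.95 under SHP2 sh2, against 11.06 and 11.15 under Ctrl shRNA. It was the 1 member with all 5 SHP2 arrays below both controls. The gap was small, and the log2 fold change for the mean of both hairpins was -0.50 (standard error 0.38, adjusted p = 0.758 from limma) with all arrays and -0.16 (standard error 0.07) without the 2 arrays that stood apart. ITGB4, the partner of ITGA6 in hemidesmosomes, had values of 10.11 and 10.84 under SHP2 sh1 and of 10.23, 9.83 and 9.33 under SHP2 sh2, against 10.37 and 10.27 under Ctrl shRNA. Here the lowest array was SHP2 sh2 replicate 3 and the highest SHP2 sh1 replicate 2, and the 3 SHP2 sh2 arrays lay below both controls. The log2 fold change of ITGB4 with SHP2 sh2 over SHP2 sh1 was -0.67 (standard error 0.34, unadjusted p = 0.0876), and -0.32 (standard error 0.43) without the arrays that stood apart.

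Counted by hairpin, 8 members had all 3 SHP2 sh2 arrays below both controls (ITGA3, ITGA5, ITGA6, ITGB1, ITGB3, ITGB4, ITGB8 and LAMB1), against 16.1% of all genes. Of the members, only ITGA3 had both SHP2 sh1 arrays below both controls (12.3% of all genes). In the other direction, 13 members had all 3 SHP2 sh2 arrays above both controls (24.2% of all genes) and 12 had both SHP2 sh1 arrays above (12.8%). The comparisons of the hairpins with Ctrl shRNA share the same 2 control arrays. All 8 members that were lower with SHP2 sh2 lay in the top quartile of control signal. They were 53.3% of the 15 members there, against 34.9% of all genes in that quartile. All 13 that were higher lay below the median signal, where they were 65% of 20 members, against 36.6% of all genes. The differences between these shares were not tested.

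**Figure D3:**
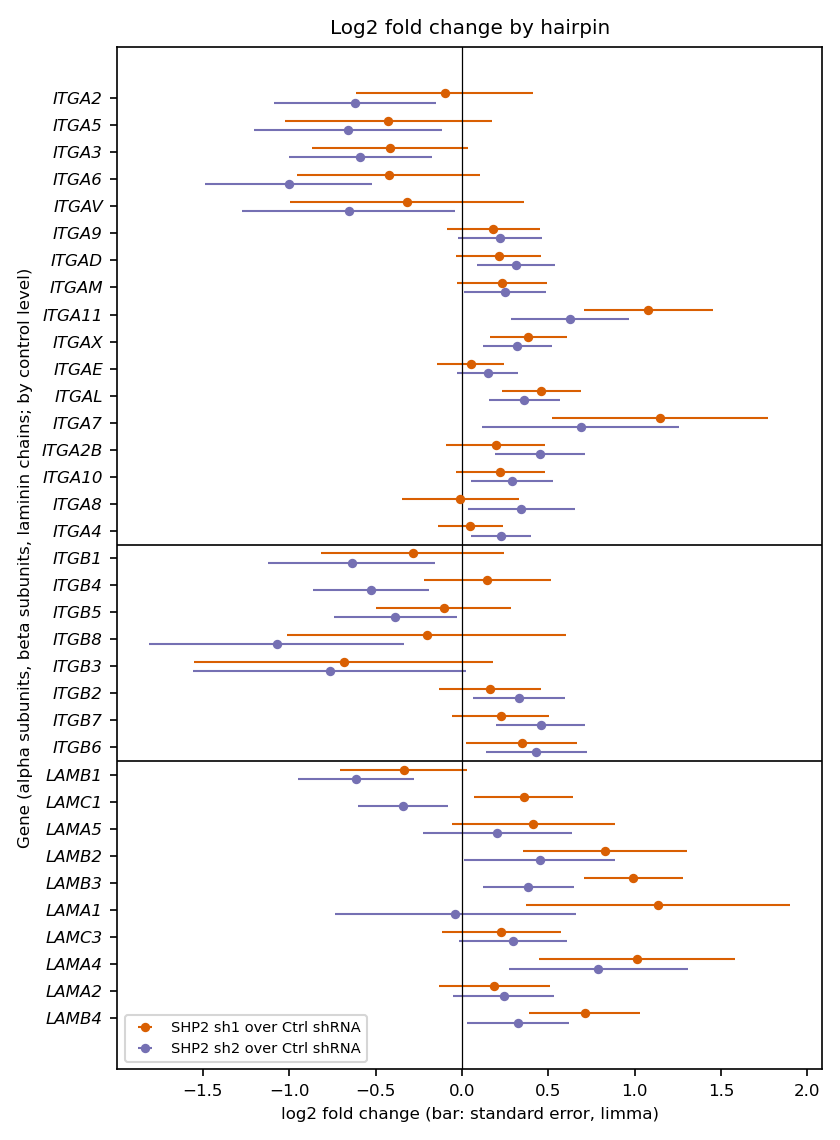
Log2 fold change of each member over Ctrl shRNA with SHP2 sh1 and SHP2 sh2 (limma), the bars giving the standard error and the genes being ordered as in the map of differences by array. LAMC1, ITGB4, LAMA1 and ITGA8 have the hairpins on opposite sides of 0, and no difference shown passed the threshold after adjustment.

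On the 2 arrays that stood apart, the position of the integrins went with their signal in the controls. Control signal is used here only to sort probes, since signals of different probes do not compare transcript amounts. By the mean of the 2 control arrays, 15 members lay in the top quartile of all genes (10 integrins and 5 laminin chains), 0 in the third and 20 below the median. On both arrays that stood apart, 9 of the 10 integrins of the top quartile were below the control mean, all but ITGB4, against 79.3% of all genes in that quartile. All 15 integrins below the median signal were above the control mean on both arrays, against 79.1% of all genes below that median. The laminin chains of the top quartile were otherwise placed, with 1 of 5 below the control mean on both arrays (LAMB1) and 3 above it (LAMA5, LAMB2 and LAMB3). The median difference from the control mean of the 10 bright integrins was 0.34 and -0.97 on replicates 1 and 2 of SHP2 sh1, and -0.26, -1.46 and -0.20 on replicates 1, 2 and 3 of SHP2 sh2. The genes of the top quartile as a whole had medians of 0.0041 and -0.61 for SHP2 sh1, and of -0.18, -1.01 and -0.04 for SHP2 sh2, in the same order. Without the 2 arrays that stood apart, the log2 fold change for the mean of both hairpins turned to values above 0 in ITGA2, ITGA5, ITGAV, ITGB1, ITGB3 and ITGB8, between 0.02 and 0.17, with SHP2 sh1 then represented by replicate 1 alone.

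**Figure D4:**
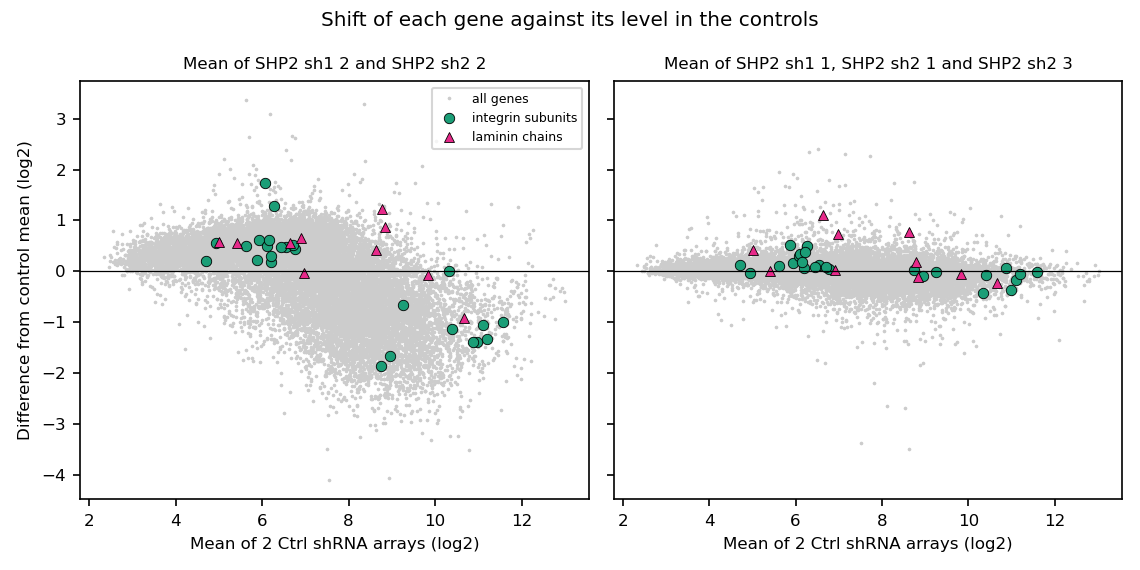
Difference from the control mean (log2) against the control mean (log2) for all genes in grey, integrin subunits as circles and laminin chains as triangles, as the mean of the 2 arrays that stood apart (left) and of the other 3 SHP2 arrays (right). On the left, bright genes lie below 0 and dim genes above it, integrins among them, while 3 laminin chains of the top quartile lie above 0.

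With SHP2 sh1 replicate 1 as the only SHP2 sh1 array, which is then assumed to vary like the other groups, ITGB1 had a log2 fold change of -0.71 for SHP2 sh2 over SHP2 sh1 (standard error 0.07, unadjusted p = 0.0013 and adjusted p = 0.247 from limma). ITGB8 stood at -1.58 (standard error 0.31) and ITGAV at -0.59 (standard error 0.13) in that comparison. In all, 11 members were lower and 1 higher at an unadjusted p under 0.05 between the hairpins without the 2 arrays, against 18.8% of all genes, and 0 passed after adjustment. Without them 9 members passed that unadjusted limit with SHP2 sh1 (10.4% of all genes), 9 with SHP2 sh2 (12.1%) and 5 for their mean (8.36%), and 0 after adjustment.

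LAMB3 was the laminin chain of smallest p with SHP2 sh1 and for the mean of both hairpins, over all arrays. LAMB3, the beta chain of laminin-332 of epithelial basement membranes, had values of 9.80 and 9.44 under SHP2 sh1 and of 9.17, 8.63 and 9.23 under SHP2 sh2, against 8.79 and 8.47 under Ctrl shRNA. Both SHP2 sh1 arrays were above all others, and SHP2 sh2 replicate 2 lay between the controls. LAMB3 was 1.99-fold higher with SHP2 sh1 (log2 fold change 0.99, standard error 0.29, unadjusted p = 0.0117 and adjusted p = 0.995 from limma) and 1.31-fold higher with SHP2 sh2 (log2 fold change 0.39, standard error 0.26). Taking both hairpins together, the log2 fold change was 0.69, with an unadjusted 95% interval of 0.11 to 1.27 and an adjusted p of 0.758 (limma). Without the 2 arrays that stood apart it was 0.87 (standard error 0.13).

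LAMA4, the alpha chain of the laminins of vessels and mesenchymal cells, had values of 7.90 and 7.40 under SHP2 sh1 and of 6.79, 6.97 and 8.51 under SHP2 sh2, against 6.69 and 6.57 under Ctrl shRNA. All 5 SHP2 arrays were above both controls, and the highest was SHP2 sh2 replicate 3, not an array that stood apart. The log2 fold change for the mean of both hairpins was 0.90 (standard error 0.48, adjusted p = 0.758 from limma), and 1.14 (standard error 0.62) without the arrays that stood apart. LAMB2, a beta chain of many tissues including muscle and kidney, had values of 9.02 and 10.20 under SHP2 sh1 and of 9.08, 9.82 and 8.78 under SHP2 sh2, against 8.72 and 8.84 under Ctrl shRNA. Both arrays that stood apart were its highest, and its log2 fold change was 0.64 (standard error 0.40) with them and 0.19 (standard error 0.13) without them.

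LAMA5, the alpha chain of laminins in most adult epithelia, shared this picture, with values of 8.60 and 9.91 under SHP2 sh1 and of 8.95, 9.53 and 8.66 under SHP2 sh2, against 8.88 and 8.80 under Ctrl shRNA. Without the 2 arrays that stood apart its log2 fold change for the mean of both hairpins was -0.14 (standard error 0.12), against 0.31 (standard error 0.40) with them. LAMB1, the beta chain of the laminins widespread in development, had values of 10.63 and 10.01 under SHP2 sh1 and of 10.30, 9.48 and 10.35 under SHP2 sh2, against 10.60 and 10.72 under Ctrl shRNA. It was the 1 laminin chain with a log2 fold change below 0 for the mean of both hairpins, at -0.48 (standard error 0.31) with all arrays and -0.18 (standard error 0.07) without those that stood apart.

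LAMC1, the gamma chain of most laminins, was the member that most separated the hairpins by p when all arrays were used. It was at 9.94, 9.22 and 9.34 with SHP2 sh2, against 10.08 and 10.31 with SHP2 sh1. The SHP2 sh2 arrays were all below the SHP2 sh1 arrays, and the controls, at 9.84 and 9.83, lay between the SHP2 sh1 arrays and the lower SHP2 sh2 arrays. The log2 fold change of SHP2 sh2 over SHP2 sh1 was -0.70 (standard error 0.26, unadjusted p = 0.0335, adjusted p = 1 from limma). LAMB3 also had all SHP2 sh2 arrays below both SHP2 sh1 arrays, as had 3.08% of all genes, and 1 member, ITGA4, had them all above (2.21% of all genes). Without the 2 arrays that stood apart the log2 fold change of LAMC1 between the hairpins was -0.44 (standard error 0.29).

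LAMA1, an alpha chain of early embryonic basement membranes, was singled out after its values were seen. It had values of 9.29 and 6.93 under SHP2 sh1 and of 7.58, 6.95 and 6.27 under SHP2 sh2, against 6.92 and 7.02 under Ctrl shRNA. Its high value came from SHP2 sh1 replicate 1 alone, while the other array of that hairpin lay with the controls. Over both hairpins its log2 fold change averaged 0.55, and -0.040 without that array. LAMB4, a beta chain of which little is known, was likewise highest on that array, at 6.02, and the other 4 SHP2 arrays ranged from 5.02 to 5.74, against 4.98 and 5.03 with Ctrl shRNA. LAMA2, the alpha chain of muscle laminin, and LAMC3, a gamma chain of restricted expression, had log2 fold changes of 0.21 and 0.26 for the mean of both hairpins, of 0.0080 and -0.020 without the arrays that stood apart, and overlapped with the controls.

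Members with dim probes were the ones found above both controls on all 5 SHP2 arrays. There were 8 of them (ITGA4, ITGA7, ITGA10, ITGA11, ITGAL, ITGAX, ITGB2 and LAMA4), or 22.9% of the members against 8.13% of all genes, and 1 member lay below on all 5, or 2.86% against 7.17%. All 8 lay below the median of control signal, where they were 40% of 20 members, against 12.8% of all genes. Without the 2 arrays that stood apart the counts were 10 above and 2 below, against 10.1% and 8.81% of all genes. With 1 array fewer, the counts were 15 above and 3 below without Ctrl shRNA replicate 1, against 19.5% and 13.2% of all genes, and 12 above and 7 below without SHP2 sh1 replicate 1, against 23.4% and 15% of all genes. Leaving out an array makes the criterion easier to meet for every gene.

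ITGA11, the alpha subunit of a collagen receptor of mesenchymal cells, had values of 7.08 and 7.62 under SHP2 sh1 and of 6.73, 7.47 and 6.49 under SHP2 sh2, against 6.41 and 6.13 under Ctrl shRNA. The arrays that stood apart were the highest of each hairpin, and SHP2 sh2 replicate 3 was close to the higher control. ITGA11 was 2.11-fold higher with SHP2 sh1 (log2 fold change 1.08, standard error 0.37, unadjusted p = 0.0249 and adjusted p = 0.995 from limma) and 1.54-fold higher with SHP2 sh2 (0.63, standard error 0.34). Without the 2 arrays its log2 fold change for the mean of both hairpins was 0.57 (standard error 0.14), against 0.85 (standard error 0.32) with them. ITGA7, the alpha subunit of the laminin receptor of muscle, had values of 6.34 and 8.09 under SHP2 sh1 and of 6.44, 7.50 and 6.34 under SHP2 sh2, against 6.08 and 6.07 under Ctrl shRNA. Its log2 fold change for the mean of both hairpins was 0.92 (standard error 0.53) with the 2 arrays and 0.29 (standard error 0.06) without them.

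The integrins of leukocytes formed a further group of dim probes. ITGAL, the alpha subunit of the leukocyte receptor for ICAM proteins, had values of 6.37 and 6.77 under SHP2 sh1 and of 6.61, 6.44 and 6.37 under SHP2 sh2, against 6.19 and 6.03 under Ctrl shRNA. ITGAX, of dendritic cells and macrophages, had values of 6.79 and 6.40 under SHP2 sh1 and of 6.40, 6.61 and 6.59 under SHP2 sh2, against 6.19 and 6.23 under Ctrl shRNA. Both stood above the controls on all 5 SHP2 arrays by small gaps, with log2 fold changes for the mean of both hairpins of 0.41 (standard error 0.19) and 0.35 (standard error 0.19), neither past the threshold, and of 0.32 and 0.43 without the arrays that stood apart. ITGB2, their beta subunit, had a log2 fold change of 0.25, and ITGAM and ITGAD, which lie next to ITGAX on chromosome 16, had 0.24 and 0.26. Without those arrays these 3 were at 0.088, 0.076 and 0.115. The summed log2 level of 6 blood cell markers of 7 listed was 34.0 to 36.0 on the SHP2 arrays and 34.1 and 34.2 on the control arrays. PTPRC, the marker of all white blood cells, was at 3.90 to 4.75 on the SHP2 arrays, against 4.04 and 4.16 on the control arrays. For the mean of both hairpins 5 of the 6 markers had log2 fold changes above 0 and 1 below. Their median was 0.22, and 0.11 without the arrays that stood apart. The 1 below 0 was CD68 (-0.16), a probe in the top quartile of control signal. The 5 endothelial markers summed to 29.1 to 31.1 on the SHP2 arrays and to 27.7 and 28.8 on the control arrays. All 5 lay below the median of control signal, and the cause of these marker levels was not tested.

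The other alpha subunits were ITGA2B of platelets, ITGA4 of lymphocytes, ITGA8, a receptor subunit for nephronectin, ITGA9, one for tenascin, ITGA10 of cartilage and ITGAE of lymphocytes in epithelia. Their log2 fold changes for the mean of both hairpins ran from 0.10 (ITGAE) to 0.32 (ITGA2B), and from -0.11 (ITGA8) to 0.13 (ITGA2B) without the arrays that stood apart. The remaining beta subunits were ITGB6, an epithelial partner of ITGAV, at 0.39 (0.56 without those arrays), and ITGB7 of lymphocytes at 0.34 (0.13 without them). The controls of ITGB6, at 6.21 and 5.55, were farther apart than this. In 8 members at least 2 arrays shared the same value (within 1e-06), among them ITGA10 on SHP2 sh1 replicate 1, SHP2 sh2 replicate 1 and SHP2 sh2 replicate 3, as did 34.6% of all genes, so the order of arrays in these dim probes is partly tied.

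Transcription factors of the ETS family and AP-1 act below ERK, and the start regions of the members were searched for their letters. RefSeq promoters (GRCh38.p14) were at hand for 24 of 35 members, and the 250 bases before the start site were read. The ETS letters CGGAAG, on either strand, stood in 4 of the 24, or 16.67%, against 16.82% of 27305 promoters of that length, and those of AP-1, TGANTCA on either strand, in 0 of 24, against 6.6%. The 4 were ITGAM, ITGAV, ITGB5 and LAMA5. The promoters of the 2 bright vitronectin receptor subunits with a match are printed with the letters in capitals. Those of LAMB3 and ITGA11 follow, the 2 members of smallest p for the mean of both hairpins over all arrays, which held no match to these letters. Other letters that ETS factors or AP-1 may bind were not searched. Positions count back from -1 at the base before the start site, and the first letter of the match lay at -158 in ITGAV and at -122 and -44 in ITGB5. The regions were chr2:186589806-186590055 (plus strand) for ITGAV, chr3:124901419-124901668 (minus strand) for ITGB5, chr1:209652426-209652675 (minus strand) for LAMB3 and chr15:68432164-68432413 (minus strand) for ITGA11, each written in the direction of its gene.
ITGAV: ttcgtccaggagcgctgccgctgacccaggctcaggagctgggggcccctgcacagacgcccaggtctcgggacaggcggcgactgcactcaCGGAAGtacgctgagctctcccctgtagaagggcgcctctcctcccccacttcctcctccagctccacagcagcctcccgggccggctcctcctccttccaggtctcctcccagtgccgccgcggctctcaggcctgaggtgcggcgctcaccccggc
ITGB5: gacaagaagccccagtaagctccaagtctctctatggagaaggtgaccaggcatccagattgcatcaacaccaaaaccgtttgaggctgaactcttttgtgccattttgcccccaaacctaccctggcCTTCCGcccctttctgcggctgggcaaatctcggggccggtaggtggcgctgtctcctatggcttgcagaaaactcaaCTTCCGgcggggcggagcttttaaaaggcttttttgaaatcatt
LAMB3: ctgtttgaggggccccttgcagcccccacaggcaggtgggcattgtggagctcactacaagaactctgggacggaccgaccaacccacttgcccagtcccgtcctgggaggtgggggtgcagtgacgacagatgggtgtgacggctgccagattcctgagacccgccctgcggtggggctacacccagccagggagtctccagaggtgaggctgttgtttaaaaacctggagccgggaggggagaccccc
ITGA11: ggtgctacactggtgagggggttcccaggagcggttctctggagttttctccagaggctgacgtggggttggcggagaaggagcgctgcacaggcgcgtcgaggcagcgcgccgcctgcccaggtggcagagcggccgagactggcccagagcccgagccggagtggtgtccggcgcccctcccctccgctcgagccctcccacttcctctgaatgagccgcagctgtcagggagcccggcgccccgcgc
A match describes letters only. The 4 members with a match had log2 fold changes for the mean of both hairpins of 0.24 (ITGAM), -0.49 (ITGAV), -0.25 (ITGB5) and 0.31 (LAMA5), on either side of 0 and none past the threshold.

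Among genes that work with integrins inside the cell, a list of talins, kindlins, focal adhesion proteins and tetraspanins, 32 were measured and limma called 0 in every comparison. For the mean of both hairpins 11 had a log2 fold change above 0 and 21 below, with a median of -0.12. The direction turned once the arrays that stood apart were left out, with 18 above, 14 below and a median of 0.046. On all 5 SHP2 arrays 3 lay above both controls, or 9.38% against 8.13% of all genes, and 7 below, or 21.9% against 7.17%. All 7 were in the top quartile of control signal, where 16% of all genes had this pattern. FERMT1, an epithelial kindlin that activates integrins, had values of 7.94 and 7.14 under SHP2 sh1 and of 7.84, 7.06 and 7.85 under SHP2 sh2, against 8.34 and 8.61 under Ctrl shRNA. Its SHP2 arrays were all below both controls, and the log2 fold change was -0.92 (standard error 0.33, unadjusted p = 0.0276 and adjusted p = 0.758 from limma). DST, whose epithelial form links ITGB4 to intermediate filaments, had a log2 fold change of -0.40 (standard error 0.20).

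Of the list of integrin ligands and other basement membrane genes, 24 were measured and 0 were called, with 16 above 0 and 8 below for the mean of both hairpins and a median of 0.18. There were 15 above and 9 below, with a median of 0.089, once the arrays that stood apart were left out. VCAM1, the cell-surface ligand of the ITGA4 receptor, had values of 7.08 and 7.46 under SHP2 sh1 and of 6.90, 6.90 and 7.25 under SHP2 sh2, against 6.09 and 5.95 under Ctrl shRNA. All 5 SHP2 arrays were above both controls, by a gap wider than the range of the arrays within any group. The log2 fold change was 1.12 (standard error 0.20, unadjusted p = 0.0010), and after adjustment over all genes p was 0.758 (limma). CDH1, the E-cadherin to which the receptor of ITGAE binds, had values of 5.16 and 7.42 under SHP2 sh1 and of 6.21, 7.12 and 5.61 under SHP2 sh2, against 5.32 and 5.19 under Ctrl shRNA. Its groups overlapped, and the 2 arrays that stood apart were the highest.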

How the data were processed

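RNA of SUM159 cells was measured on 7 arrays. The authors produced the deposited log2 values by robust multi-array averaging in oligo, whose version the sources used here do not give. It subtracts background, applies quantile normalization and combines a transcript's probes, and the values were taken as they stand. For arrays of summarised signals, the number of arrays limits the precision. The sample labels name a column-based RNA kit and the paper's array methods another reagent.

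Symbols followed the array annotation and were updated by gene ID with RefSeq (GRCh38.p14), where 19429 of 19460 single-symbol probes were found. Of 33297 probes, 1754 had several symbols and 12083 none listed. The probe of largest interquartile range stood for a gene. limma (3.58.1, R 4.3.3) fitted the 3 groups over all arrays with eBayes, in 4 comparisons. Tests were two-sided, adjusted by Benjamini-Hochberg over 18417 genes, with a threshold of 0.05 and intervals of 95%. Python (3.11.15) read the promoters. On simulated arrays with independent noise for each gene, the fit was checked only for returning planted log2 fold changes. No simulated array stood apart, and no requirement was set on the calls.

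Values by array were given for PTPN11, for members past the threshold, for up to 5 members in each direction with the largest change among those whose SHP2 arrays did not overlap the controls, for a fixed list of matrix receptors and laminin chains, and for the 2 genes of smallest p in each of 2 wider lists. The members and lists were chosen with earlier results of these data known.

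Alternatives were other probes per gene, a filter on probes under a mean of 5, cyclic loess, median centring, array weights, a trend, the replicate block, a fit of the compared groups alone, single arrays left out, and both arrays that stood apart left out. Counting calls at an unadjusted p without both was chosen after seeing the data.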

Additional observations from a re-analysis of the deposited data

How the results depend on the processing

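Of the members, 0 passed the threshold in each of the 4 comparisons under the alternatives run, array weights included, which called 122 of all genes with SHP2 sh2. The fit of the compared groups alone covered 3 comparisons, without the mean of both hairpins. The replicate block also gave 0 called members in each comparison, while at an unadjusted p under 0.05 it gave 6 members for SHP2 sh1, 11 for SHP2 sh2, 6 for their mean and 3 between hairpins. The replicate numbers are shared by the groups in the labels. Deviations of same-numbered arrays correlated at -0.06 to 0.02 between hairpin and control arrays and at 0.62 and 0.85 between the hairpins. SHP2 sh1 replicate 1 and SHP2 sh2 replicate 3, of different numbers, were at 0.81. In a group of 2 arrays the deviations mirror each other, so these values cannot show whether the numbers pair the samples. The main fit did not pair them. The 9 members that did not overlap became 8 to 12 under the other settings and 9 to 19 with single arrays left out. For the mean of both hairpins, the log2 fold change changed its sign without both arrays that stood apart in ITGA2 (0.10), ITGA5 (0.024), ITGAV (0.16), ITGB1 (0.054), ITGB3 (0.15), ITGB8 (0.17) and LAMA5 (-0.14), with cyclic loess in ITGB4 (0.043), and with median centring in LAMC1 (-0.043). With single arrays left out it ran from -0.017 to 0.64 in LAMA5 and from -0.10 to 0.079 in LAMC1. Of the members outside the rule for naming, LAMC3 (-0.020) and ITGA8 (-0.11) turned without both arrays that stood apart, ITGA8 (-0.013) also without SHP2 sh1 replicate 2, LAMA1 (-0.040) without SHP2 sh1 replicate 1, and ITGA4 (-0.011) and ITGAE (-0.067) with cyclic loess. The cause was not tested.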

Other observations

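The probe shared by PELO and ITGA1, which names no single gene, had values of 7.50 and 6.80 under SHP2 sh1 and of 7.20, 6.74 and 7.46 under SHP2 sh2, against 7.20 and 7.20 under Ctrl shRNA. ITGB3BP, a centromere protein that binds the tail of ITGB3 and is no subunit, had all 5 SHP2 arrays (6.77 to 8.148) below both controls (8.155 and 8.29), with a log2 fold change of -0.66 (standard error 0.45) over both hairpins. ITGBL1, a secreted protein with integrin-like repeats, was at 6.49 to 6.95 on the SHP2 arrays, against 7.10 and 6.13 on the control arrays, with a log2 fold change of 0.02.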
